A study of Zea mays with 36 samples.

Results

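Blocks 6000 and 7000 are neighbouring stretches of the maize gene numbering, the IDs Zm00001d006000 to Zm00001d006999 and the IDs Zm00001d007000 to Zm00001d007999. Their members are the IDs with at least 1 RPKM (reads scaled by feature length and library total) in at least 3 of 36 libraries, 922 of the 28048 features that passed this filter in the whole table. Block 6000 had 495 members of 874 IDs in the table, and block 7000 had 427 of 833. Of the other IDs, 163 in block 6000 and 158 in block 7000 were listed at 0 in every library, and 216 and 248 had some reads but did not pass. At the edge of the filter, 9 members of block 6000 and 3 of block 7000 reached 1 RPKM in exactly 3 libraries, with third-highest values of 1.01 to 2.16 and 1.002 to 1.72 RPKM. Another 7 and 6 IDs reached it in 2 libraries and were left out, with third-highest values of 0.683 to 0.981 and 0.821 to 0.989 RPKM. The members were selected on ID number and on RPKM level, and the blocks were chosen by their line differences in these data, so their counts and medians in the line comparison are descriptions that stand beside the same values over all features, and nothing is read from them.

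The libraries were made from maize embryos of a high-oil line and a low-oil line taken at 6 stages, every 5 days from day 15 to day 40 after pollination, with 3 replicates of each, which makes 18 libraries per line. All seeds, of both lines, stood overnight in water before the embryos were cut out of the endosperm. Each oil level was represented by 1 line, whose name the labels do not give, so an effect of oil content and one of any other genetic difference cannot be told apart. Nothing in the labels says that replicates came from separate plants, and p-values then measure only how these samples scatter. Recovered library totals ran from 41246928 to 66760035 reads. The labelled tissue could not be checked against embryo and endosperm marker genes, because no ID of the table matched a gene name in the references used here. In whole embryos, fewer cells of a type and less RNA per cell cannot be told apart.

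The maize embryo fills with storage oil and storage protein and then dries as the seed matures, and its transcripts change broadly over that time. In the B73 annotation the gene IDs are numbered along the chromosomes, so near numbers usually mark near genes, although neither positions nor functions of these IDs were checked here. Maize inbred lines differ in some stretches of a chromosome by sequence, by gene content and by the presence of whole genes, and share nearly the same haplotype in others. The comparison of the blocks asks how the difference between the lines was spread over neighbouring genes.

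Few members of block 6000 and many more of block 7000 differed between the lines. Averaged over the 6 stages, 4 of 495 members of block 6000 were called, and 32 of 427 members of block 7000. A call means an adjusted p below 0.05 and a difference of at least 1 on the log2(RPKM + 1) scale in limma's moderated test over all features. The shares called were 0.808% in block 6000 and 7.49% in block 7000, beside 4.39% of all annotated genes and 5.83% of all features. In high-oil embryos 3 of the 4 were higher and 1 lower, and 14 of the 32 were higher and 18 lower, beside 2.86% of all features higher and 2.96% lower. The share of block 7000 was thus the nearer of the pair to the whole table. The median absolute difference was 0.105 log2 units in block 6000 and 0.154 in block 7000, beside 0.143 over all annotated genes.

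**Figure D1:**
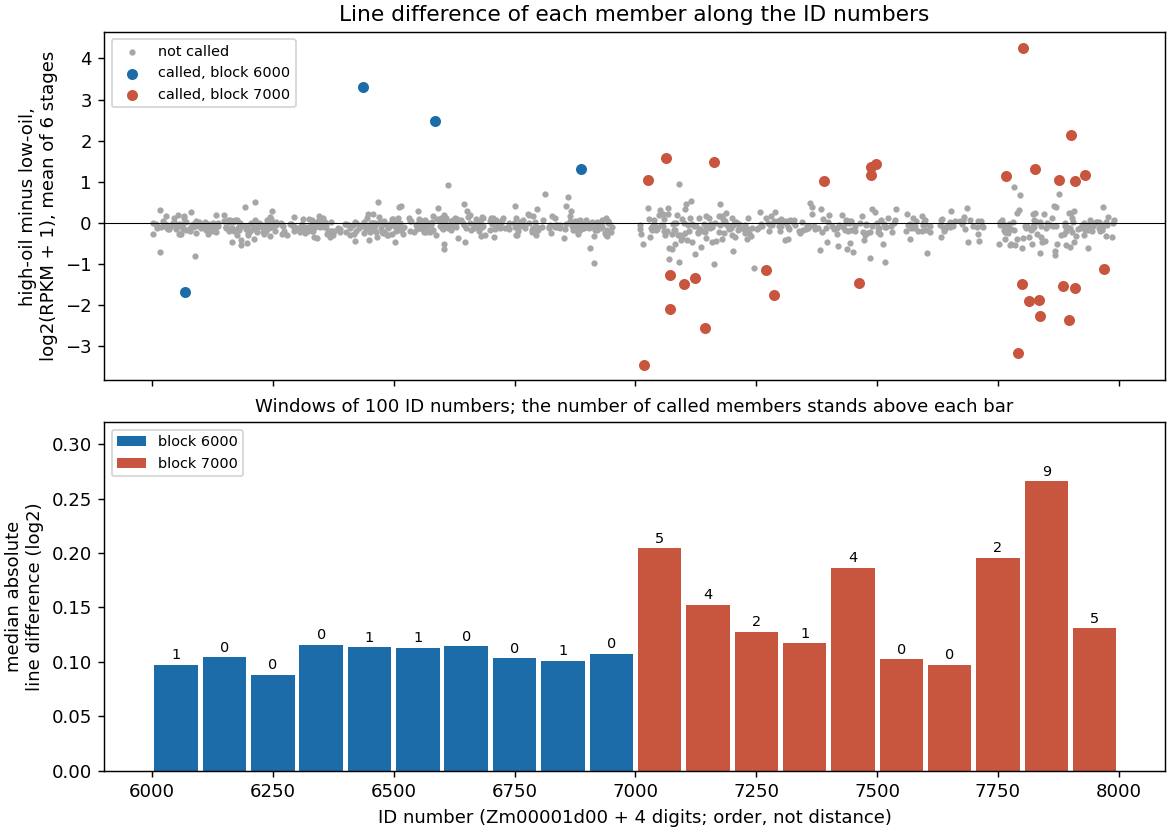
Top, the line difference of each of the 922 members (high-oil minus low-oil, log2(RPKM + 1), mean of 6 stages) against its ID number, with called members as large coloured points; bottom, the median absolute difference in windows of 100 ID numbers with the count of called members above each bar. The 4 called members of block 6000 stand alone among small values, whereas those of block 7000 lie in several groups, 9 of them in the window from 7800.

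The 95% interval of the line difference lay within 1 log2 unit of 0 for 486 members of block 6000 (98.2%) and for 378 members of block 7000 (88.5%), beside 92.4% of all annotated genes. Within 0.5 log2 units the shares were 83.8%, 69.1% and 72.6%. The median member had a mean of 7.47 RPKM in block 6000, 7.10 in block 7000 and 7.39 over all annotated genes, a residual SD of 0.262, 0.268 and 0.278 log2 units, and a length of 1571, 1644 and 1559 bases. Among members with a mean of 1 to 10 RPKM, 3 of 243 (1.23%) were called in block 6000 and 18 of 206 (8.74%) in block 7000. At that level 5.76% of all annotated genes and 8.26% of all features were called. From 10 to 100 RPKM the counts in the blocks were 0 of 181 and 11 of 154 (7.14%). There the shares were 2.97% of all annotated genes and 3.39% of all features.

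The filter itself admits members because 1 line is high. In block 6000, 8 members reached 1 RPKM in 3 libraries of the high-oil line only and 12 of the low-oil line only, and in block 7000 these numbers were 17 and 24. Such members passed through 1 line alone. When only members with 3 such libraries in each line were tested, 0 of 468 were called in block 6000 and 20 of 383 (5.22%) in block 7000, beside 3.11% of all features under the same filter. In block 6000, limma gave 102 of these 468 members an unadjusted p below 0.05 and 60 an adjusted p below 0.05, with no difference above 0.97 log2 units. All 4 calls of block 6000 thus came from members that reached 1 RPKM in fewer than 3 libraries of 1 line. Of the called members of block 7000 described below, the same held for Zm00001d007018, Zm00001d007101, Zm00001d007487, Zm00001d007488, Zm00001d007498, Zm00001d007792, Zm00001d007801 and Zm00001d007896. All of these were admitted by the line where they are high. Their p-values and the gaps between their lines are therefore given as descriptions.

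The blocks were chosen by their line differences, of which those at single stages are parts, so the counts by stage are descriptions as well. From 15 to 40 days the members called in block 6000 numbered 6, 10, 11, 7, 12 and 9, shares of 1.21%, 2.02%, 2.22%, 1.41%, 2.42% and 1.82%. In block 7000 they numbered 26, 28, 28, 34, 39 and 24, shares of 6.09%, 6.56%, 6.56%, 7.96%, 9.13% and 5.62%. Over all features the shares were 5.72%, 6.85%, 7.36%, 6.3%, 8.27% and 6.88%. Block 6000 lay below the table at all 6 stages. Block 7000 lay close to it, above it on days 15, 30 and 35 and below it on days 20, 25 and 40. Over all annotated genes, to which the members belong, the shares were lower, at 4.6%, 5.48%, 5.91%, 4.97%, 6.92% and 5.33%. Block 7000 lay above these at all 6 stages and block 6000 below. In block 7000 more calls were lower than higher in high-oil embryos at every stage, also under median-of-ratios and quantile scaling. From 15 to 40 days 17, 22, 23, 24, 26 and 15 were lower and 9, 6, 5, 10, 13 and 9 higher. Over all features 2.77%, 3.54%, 4.12%, 3.38%, 5.13% and 3.47% were called lower and 2.95%, 3.31%, 3.24%, 2.92%, 3.14% and 3.4% higher. In block 6000 the order depended on the scaling: at 25 days 7 of its calls were lower and 4 higher, or 5 and 6 under median-of-ratios scaling, and at 35 days 7 and 5, or 5 and 6. The median difference of all features was -0.13 log2 units at 25 days and -0.11 at 35 days before that scaling. Under quantile scaling the order in block 6000 held, with 7 lower and 6 higher at 25 days and again at 35 days.

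Persistent differences were found in both blocks. The call held at all 6 stages in 1 direction for 3 members of block 6000 (0.606%) and 11 of block 7000 (2.58%). The share was 1.53% of all annotated genes and 2.24% of all features. The 11 were 2 higher and 9 lower members, beside 1.14% higher and 1.09% lower of all features. At 1 or more stages 30 members of block 6000 (6.06%) and 73 of block 7000 (17.1%) were called. Beside these stood 14.8% of all annotated genes and 17.2% of all features. The 18 high-oil and 18 low-oil values did not overlap for 3 members of block 6000 (0.606%) and 8 of block 7000 (1.87%). Without overlap were also 1.84% of all annotated genes and 2.91% of all features. In block 6000 all 3 lay higher in high-oil embryos, and in block 7000 2 lay higher and 6 lower, beside 1.49% and 1.42% of all features. Across members, the line differences at 15 and 40 days correlated with r = 0.27 in block 6000, 0.57 in block 7000 and 0.49 over all annotated genes. Between neighbouring stages these values were 0.63, 0.74 and 0.71 for 15 and 20 days, 0.34, 0.70 and 0.64 for 25 and 30 days, and 0.70, 0.80 and 0.83 for 35 and 40 days. Members are not independent replicates, and these correlations carry no test.

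Of the 55 blocks of 1000 numbers in the annotation, block 6000 had the lowest median absolute difference, ahead of block 4000 at 0.108. By share called it was the third lowest, after block 20000 with 0 of 417 members and block 18000 with 0.755%. Block 7000 ranked 46th from the lowest by share called and 36th by median absolute difference, and the highest share was 14.2% in block 16000. The blocks on either side, 5000 and 8000, had 4.42% and 5.01%.

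**Figure D2:**
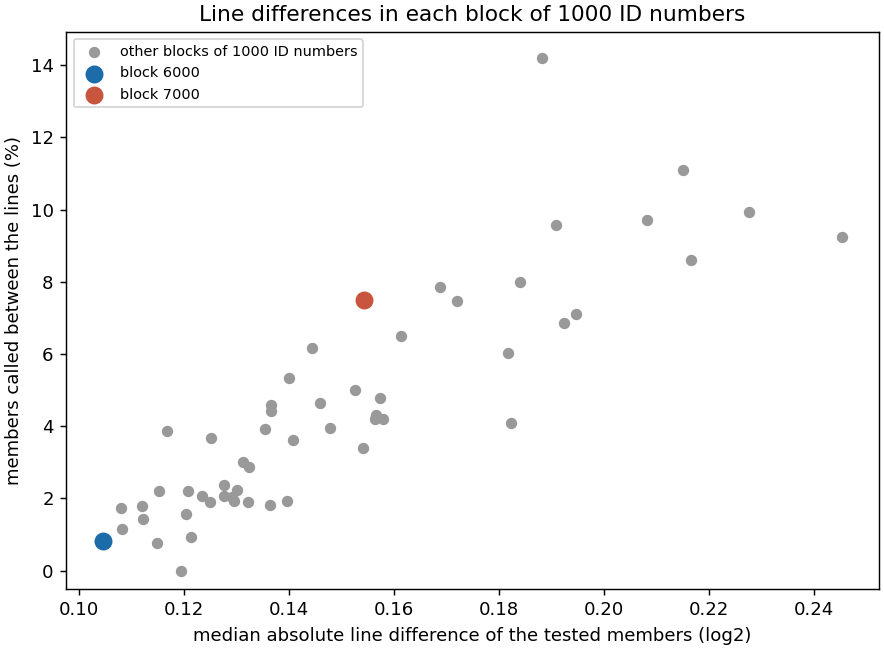
Share of tested members called between the lines (%) against their median absolute line difference (log2), with 1 point for each of the 55 blocks of 1000 ID numbers. Block 6000 is the leftmost point at 0.105 and 0.808%, and block 7000 lies among the higher shares at 0.154 and 7.49%, below the maximum of 14.2%.

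In block 6000, Zm00001d006437 had the largest difference. Its lowest, median and highest values were 4.74, 9.71 and 18.5 RPKM in the high-oil libraries, against 0.0349, 0.0844 and 0.438 RPKM in the low-oil libraries. Every high-oil library lay above every low-oil library, by 3.30 log2 units on average (SE 0.08, adjusted p = 8e-25). The high-oil line had 9391 reads of this gene and the low-oil line 125, a ratio of 78.1 after allowing for library totals (95% counting interval 65.5 to 94.0). The level declined with age in high-oil embryos, with values of 14.8, 14.6 and 16.4 RPKM at 15 days and 4.74, 7.18 and 7.87 RPKM at 40 days (log2 -1.12, SE 0.19, adjusted p = 9.8e-06).

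Zm00001d006586 followed the same pattern at a lower level. It had 2.65, 4.09 and 10.4 RPKM (lowest, median and highest) in high-oil embryos, against 0, 0.00901 and 0.0466 RPKM in low-oil embryos, where 9 libraries had no read. The groups did not overlap (log2 2.47, SE 0.07, adjusted p = 6.6e-23). The pooled reads were 3888 against 11, a ratio of 368 with an interval of 205 to 737.

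Zm00001d006888 was low in both lines but nearly absent from the low-oil libraries. It had 0.211, 1.64 and 2.62 RPKM in high-oil embryos, against 0, 0 and 0.113 RPKM in low-oil embryos, with 16 of 18 low-oil libraries at 0. The groups did not overlap (log2 1.31, SE 0.09, adjusted p = 5.1e-13), and 1184 reads stood against 5. Its lowest high-oil values, 0.211 and 0.409 RPKM, came from 35-day replicate 2 and 40-day replicate 1, which also had the lowest correlations with their own groups among the high-oil libraries, 0.938 and 0.934.

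Zm00001d006069 was the 1 member of block 6000 called lower in high-oil embryos. It had 0, 0.0155 and 0.342 RPKM in high-oil embryos, against 0.107, 2.71 and 7.46 RPKM in low-oil embryos (log2 -1.67, SE 0.10, adjusted p = 6.8e-15), with 78 reads against 3468. The lines drew together with age. The low-oil libraries held 4.44, 5 and 2.37 RPKM at 15 days but 0.107, 0.651 and 1.26 RPKM at 40 days, where the lines overlapped. The difference was called at 15, 20, 25 and 30 days and at neither later stage. At 35 days the low-oil values, 1.46, 1.41 and 0.581 RPKM, still lay above the high-oil values, 0.117, 0.13 and 0.023 RPKM.

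**Figure D3:**
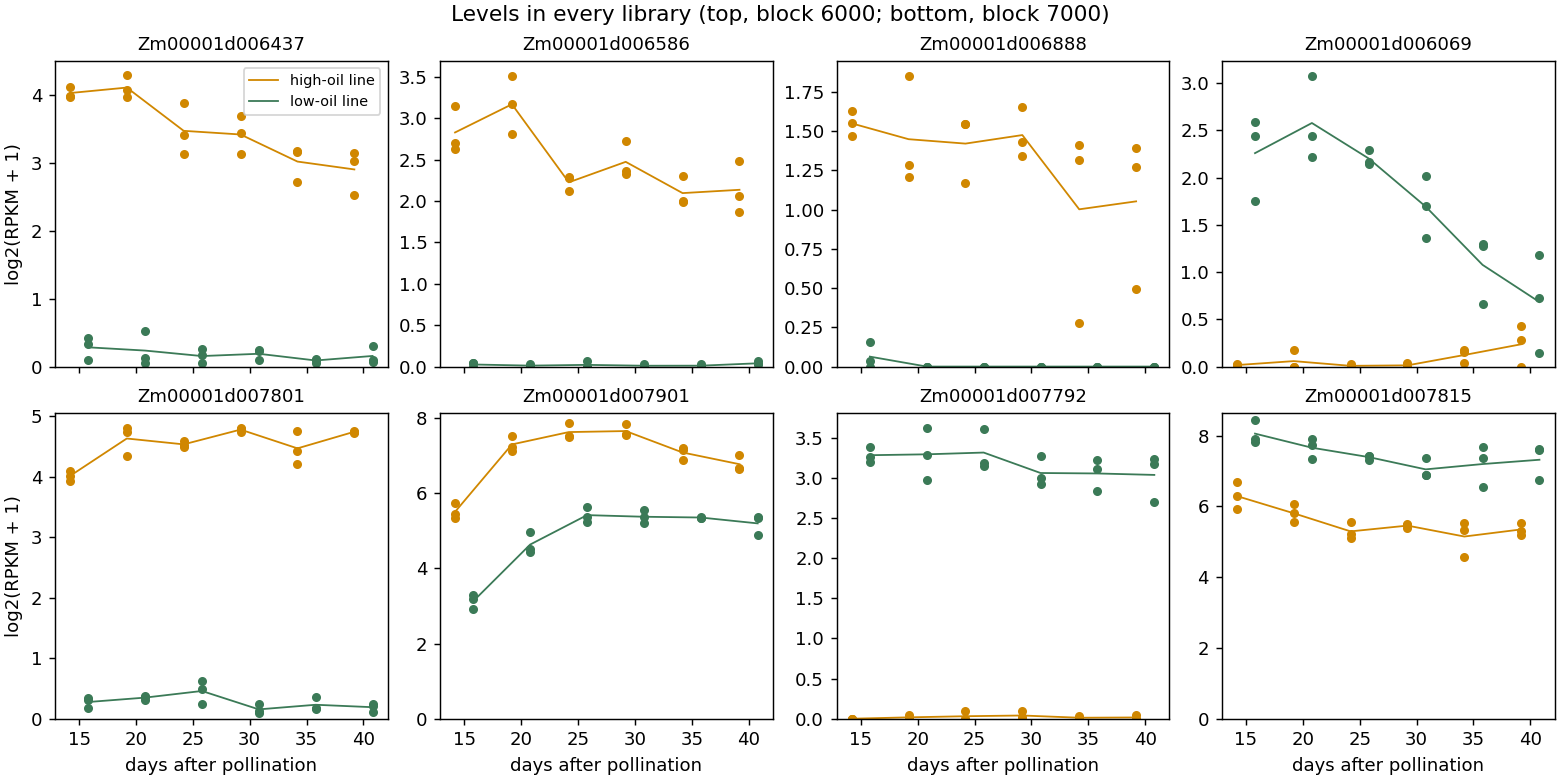
Levels in every library, log2(RPKM + 1), against days after pollination for the 4 called members of block 6000 (top) and for 4 of block 7000 (bottom), with points for libraries and lines through the means of 3 replicates per stage. In high-oil embryos Zm00001d006437 and Zm00001d007801 stay far above the low-oil libraries at every stage. For Zm00001d006069 the low-oil values come down and overlap those of the high-oil line at 40 days.

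In block 7000 the largest difference was that of Zm00001d007801. It had 14.2, 24.3 and 27.1 RPKM (lowest, median and highest) in high-oil embryos, against 0.0706, 0.188 and 0.549 RPKM in low-oil embryos. The groups lay far apart at every stage (log2 4.25, SE 0.06, adjusted p = 4.8e-31), and the ratio of pooled reads was 106 (95% counting interval 98.6 to 114). Its neighbour by number, Zm00001d007800, went the other way, with 0.0792, 0.651 and 2.87 RPKM in high-oil embryos, against 0.492, 4.06 and 14.8 RPKM in low-oil embryos (log2 -1.47, SE 0.11, adjusted p = 6.2e-12). The use of strand in counting is not given in the sources used here, and reads of overlapping neighbours cannot be told apart without it.

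Zm00001d007901 was abundant in both lines and higher in high-oil embryos throughout. It had 39.2, 145 and 235 RPKM in high-oil embryos, against 6.52, 38.1 and 49 RPKM in low-oil embryos (log2 2.14, SE 0.07, adjusted p = 3.1e-21). The ranges over all ages overlapped, but the lines did not overlap at any single stage: at 15 days the values were 52.7, 42.3 and 39.2 RPKM against 6.52, 8.71 and 8.13, and at 25 days 235, 182 and 178 RPKM against 40.2, 36.9 and 49. Zm00001d007826 began level and drew apart. At 15 days it had 20, 11.5 and 12.7 RPKM in high-oil embryos, against 12.8, 14.9 and 12.7 RPKM in low-oil embryos, and at 40 days 40.7, 39.2 and 39.4 against 5.79, 13.7 and 9.68 (average log2 1.32, SE 0.10, adjusted p = 1.8e-12). The other 4 of the 7 largest higher members, Zm00001d007064, Zm00001d007162, Zm00001d007487 and Zm00001d007488, varied within a line and are described with their neighbours.

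Among the members that were lower in high-oil embryos, Zm00001d007018 differed most. It had 0, 0 and 0.071 RPKM in high-oil embryos, 7 reads in all, against 3.27, 9.11 and 43 RPKM and 7710 reads in low-oil embryos. The groups did not overlap (log2 -3.44, SE 0.14, adjusted p = 2.7e-18), and the ratio of pooled low-oil to high-oil reads was 1059 with an interval of 514 to 2635. Zm00001d007792 was as nearly absent, with 0, 0 and 0.0689 RPKM in high-oil embryos, against a steady 5.51, 8.13 and 11.3 RPKM in low-oil embryos (log2 -3.15, SE 0.06, adjusted p = 4.4e-26). Zm00001d007896 had 0, 0.0143 and 0.254 RPKM in high-oil embryos, against 1.42, 4.24 and 12.2 RPKM in low-oil embryos, again without overlap (log2 -2.36, SE 0.08, adjusted p = 4e-20). A member that was not called, Zm00001d007821, chosen after its values were seen, was listed at 0 in all 18 high-oil libraries and had 0.0992 to 1.92 RPKM in the low-oil libraries. With 847 low-oil reads and a floor of 3 reads over the group, it was at least 271-fold lower in high-oil embryos, but its difference of -0.52 on the log2(RPKM + 1) scale was below the minimum (adjusted p = 1.3e-07).

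Other lower members were expressed in both lines. Zm00001d007815 had 22.9, 45 and 102 RPKM in high-oil embryos, against 93.3, 172 and 347 RPKM in low-oil embryos (log2 -1.89, SE 0.11, adjusted p = 8.9e-15). Its change from 15 to 40 days was called in neither line (log2 -0.94 in high-oil and -0.74 in low-oil embryos, adjusted p = 0.0038 and 0.021). Zm00001d007884 had 23.5, 40.9 and 58.6 RPKM in high-oil embryos, against 81.8, 117 and 137 RPKM in low-oil embryos. These values did not overlap, and its log2 difference stayed between -1.42 and -1.70 at the 6 stages (average -1.54, SE 0.06, adjusted p = 5e-19). Zm00001d007835 and Zm00001d007836 differed between the lines in the same direction. Zm00001d007835 had 6.68, 8.76 and 33 RPKM in high-oil embryos, against 30.1, 39.2 and 45.4 RPKM in low-oil embryos (log2 -1.86, SE 0.13, adjusted p = 8.7e-13). Its only high-oil values above 12 RPKM were 26 RPKM in 35-day replicate 2 and 33 RPKM in 40-day replicate 1, the libraries named above for their low correlation with their groups. Zm00001d007836 had 0.117, 1.3 and 4.73 RPKM in high-oil embryos, against 5.63, 10.9 and 18.2 RPKM in low-oil embryos, without overlap (log2 -2.26, SE 0.10, adjusted p = 2.8e-18).

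Of the 32 called members of block 7000, 28 had the same sign at all 6 stages. The low-oil mean was below 1 RPKM for 6 of the 14 higher members and the high-oil mean was below 1 RPKM for 8 of the 18 lower ones, while 8 of the 32 averaged at least 10 RPKM in both lines. In block 6000 all 4 called members averaged below 1 RPKM in the lower line. The build named in the submitters' notes is that of 1 inbred line, B73. A single reference can take reads away from a line whose gene copy differs from it or is missing, and the part of this in the differences was not tested. Near-identical gene copies elsewhere in the genome can also share reads, and which members have such copies was not checked. Of the 8 members whose values did not overlap, 2 were not called, Zm00001d007821 and Zm00001d007784. Zm00001d007784 had values from 57.6 to just under 100 RPKM with a median of 78.3 in high-oil embryos, against 37.2, 41 and 47.1 RPKM in low-oil embryos (log2 0.87, SE 0.05, adjusted p = 1.1e-14), and was chosen after its values were seen.

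Along the numbers, the windows of block 7000 held between 0 and 9 calls. In windows of 100 numbers, 9 of 52 members (17.3%) were called from 7800 to 7899, where the median absolute difference was 0.266 log2 units, and 5 of 51 (9.8%) from 7000 to 7099, where it was 0.205. By contrast, 0 of 36 were called from 7500 to 7599 and 0 of 28 from 7600 to 7699, with medians of 0.102 and 0.0975. Over all annotated genes, the median of 512 such windows with 20 or more members had 2.38% called, with quartiles of 0 and 6.52% and a maximum of 28.9%. A share of 17.3% or more was reached in 18 of them and 9.8% or more in 78, and 182 (35.5%) had no call, so windows without a call were common in the annotation. Between Zm00001d007500 and Zm00001d007765, 81 members in a row were not called, the 65th longest such run of 878 among the annotated genes. The medians of the windows from 7500 and 7600 were within the span of block 6000, whose windows ran from 0.0883 to 0.116 with at most 1 called member each. The run also reached into the window from 7700 to 7799, where the median was 0.196. The windows of block 6000 with the highest and lowest share were those from 6800 (1 of 46, 2.17%) and, among 6 windows with no call, for example 6100 to 6199 with 0 of 59.

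Block 6000 held long runs without a call. From Zm00001d006070 to Zm00001d006433 there were 189 such members in a row, the 14th longest run, and from Zm00001d006588 to Zm00001d006887 there were 148, the 27th. A run of 171 began in block 5000, at Zm00001d005722, and ended at Zm00001d006067, so the low share did not begin at the edge of the block. The longest run of called neighbours in block 7000 was 2 members. Both members of a neighbouring pair were called in 0 of 494 pairs in block 6000 and 6 of 426 pairs in block 7000, beside 166 of 23756 pairs of annotated genes. In block 7000, 3 of the 6 pairs went the same way and 3 went opposite ways. Of those with consecutive numbers, Zm00001d007071 with Zm00001d007072, Zm00001d007487 with Zm00001d007488, and Zm00001d007835 with Zm00001d007836 had the same direction, and Zm00001d007800 with Zm00001d007801, and Zm00001d007909 with Zm00001d007910, opposite ones. The sizes of the difference were weakly alike between neighbours in block 7000 (r = 0.17 across pairs for the absolute value, against -0.03 for the signed value), as over all annotated genes (0.158 and 0.0637). In block 6000 both were -0.004. Pairs are not independent and overlap in their members.

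Some called members of block 7000 were uneven among libraries of 1 line. Zm00001d007487 and Zm00001d007488 were close to 0 in every low-oil library, at no more than 0.105 and 0.053 RPKM, but in high-oil embryos they were present in some libraries and not in others. At 15 days replicates 1, 2 and 3 of the high-oil line had 4.31, 0 and 0 RPKM of Zm00001d007487 and 1.46, 0 and 0 RPKM of Zm00001d007488. At 30 days they had 3.59, 8.61 and 0 RPKM of Zm00001d007487 and 4.63, 12.9 and 0.0576 RPKM of Zm00001d007488, and at 35 days 0.0326, 16.3 and 10.6 RPKM and 0, 7.52 and 6.37 RPKM. Both were below 0.25 RPKM in 8 of the 18 high-oil libraries, both were at or above 0.5 RPKM in 9, and 1 library lay between. The third called member of the same window, Zm00001d007498, had 9.56, 0.838 and 0.625 RPKM in the same 15-day high-oil libraries, 7.35, 9.45 and 0.0972 RPKM in the 30-day ones and 0.954, 10.7 and 13.7 RPKM in the 35-day ones, against at most 1.07 RPKM in low-oil embryos. The replicates that were low for the pair were thus low for this gene as well. The line differences of the 3 genes were 1.35, 1.18 and 1.44 log2 units, with SEs of 0.32, 0.27 and 0.32 and adjusted p = 0.0012, 0.00097 and 0.00064, and the mean of a line describes few of its libraries here.

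The low-oil line showed a pattern of this kind further down the numbers, where 7 members from Zm00001d007064 to Zm00001d007162 were called. Zm00001d007064 had 2.13, 3.24 and 7.01 RPKM in high-oil embryos, against 0, 0.138 and 6.09 RPKM in low-oil embryos (log2 1.59, SE 0.21, adjusted p = 2.6e-07). The low-oil values at 25 days were 0.329, 0.0564 and 6.09 RPKM, of which only that of replicate 3 lay within the range of the 18 high-oil libraries. At the same stage Zm00001d007162 had 5.69, 7.85 and 8.29 RPKM in high-oil embryos, against 0.186, 0.489 and 13.3 RPKM in low-oil embryos. Of the 5 members that were lower in high-oil embryos, replicate 3 was the lowest low-oil library at 25 days in 4. The exception was Zm00001d007123, with 5.69, 0.402 and 0.861 RPKM. Zm00001d007101 had 0 RPKM in all high-oil libraries at 25 days, against 2.63, 1.62 and 0 RPKM in low-oil embryos, and Zm00001d007143 had 9.62, 9.67 and 13.1 RPKM, against 58.9, 59.1 and 3.19 RPKM. For Zm00001d007071 the low-oil values were 5.33, 5.07 and 0 RPKM.

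Counted over the 7 members, low-oil 25-day replicate 3 was nearer on the log2 scale to the median of the 18 high-oil libraries than to that of the 18 low-oil libraries for 7 of 7. Replicates 1 and 3 of the low-oil line at 20 days were so for 5 of 7 each, and replicate 2 for 1. The 3 low-oil libraries at 15 days were nearer for 3 of 7 each, and the low-oil libraries from 30 days on for 0 or 1. No high-oil library was nearer to the low-oil median for more than 3. Over all 32 called members of block 7000, these 7 included, low-oil 25-day replicate 3 was nearer to the other line for 8. Nearly all of its count thus came from this stretch. Over all features this library also had a low correlation with its own group, 0.946. Among the low-oil libraries only 40-day replicate 1 had a lower one, at 0.941. Other libraries had similar totals over the 32 with fewer from the 7. The totals were 9 for low-oil 20-day replicate 1, 8 for low-oil 15-day replicate 3 and 10 for high-oil 40-day replicate 1. Whether seeds or plants of these samples differed in genotype was not tested. Without low-oil 25-day replicate 3 the members of block 7000 called at 25 days numbered 41 in place of 28, and those called on average over the stages 34 in place of 32. In block 6000 these counts were 15 in place of 11 and 4 in both cases. Over all features 7.97% were called at 25 days without this library, in place of 7.36%. Both sets of genes were chosen after their values were seen.

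**Figure D4:**
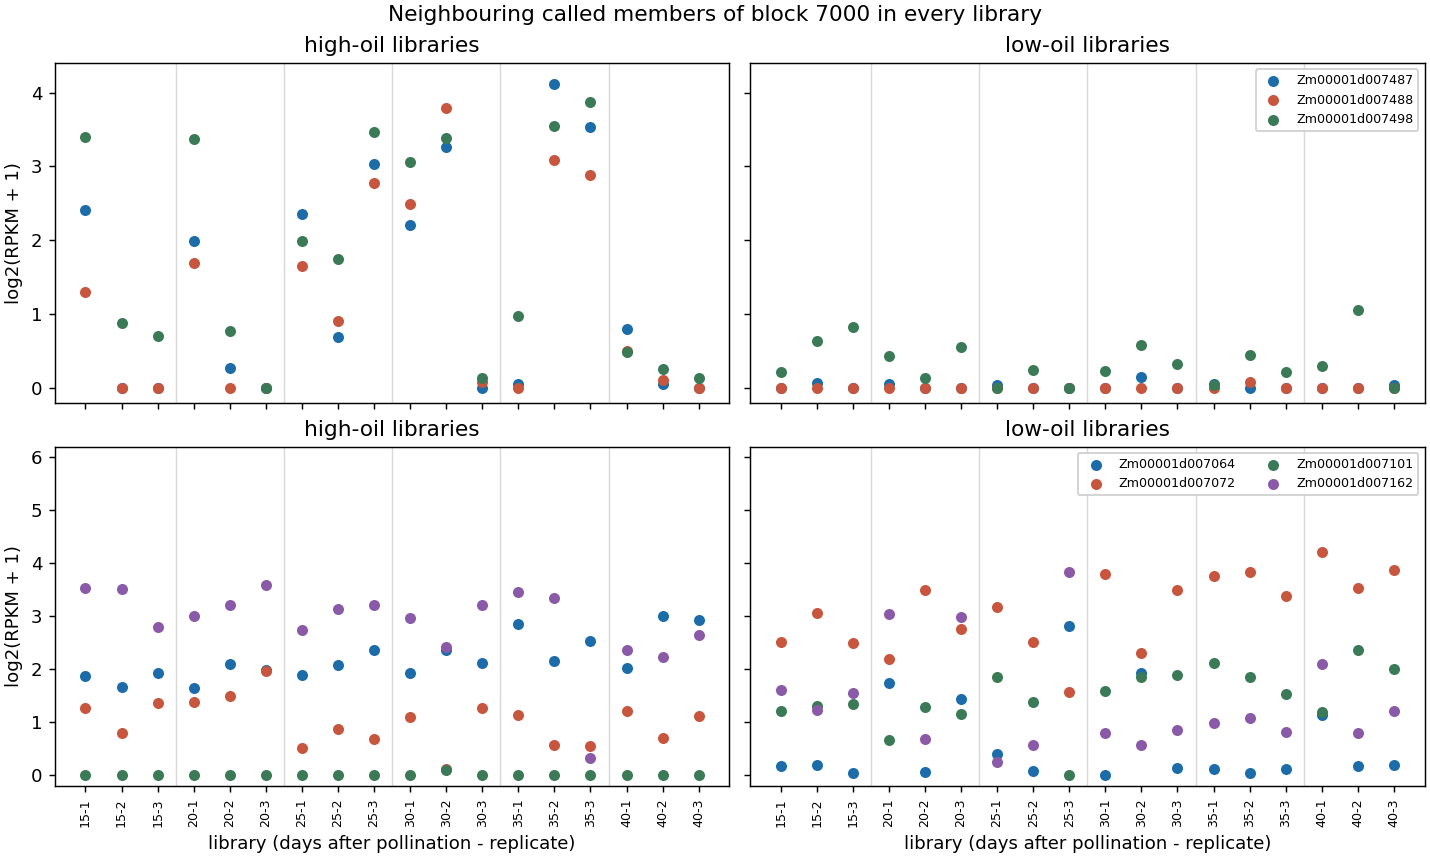
Level of called members of block 7000 in each library, log2(RPKM + 1), for the high-oil (left) and low-oil (right) libraries in order of days after pollination and replicate; the top row shows Zm00001d007487, Zm00001d007488 and Zm00001d007498, the bottom row 4 of the 7 called members from Zm00001d007064 to Zm00001d007162. High-oil libraries of 1 stage differ for all 3 genes at once in the top row, and in the bottom row low-oil 25-day replicate 3 has Zm00001d007064 and Zm00001d007162 high at 6.09 and 13.3 RPKM and Zm00001d007101 at 0.

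The change from 15 to 40 days, which played no role in the choice of the blocks, was called for 29.7% to 35.6% of members, by block and line. In block 6000, 170 members were called in high-oil embryos (34.3%) and 176 in low-oil embryos (35.6%). In block 7000 these counts were 132 (30.9%) and 127 (29.7%), beside 31.5% and 32.3% of all features. Among the 55 blocks these shares placed block 6000 38th and 40th from the lowest, and block 7000 13th and 5th. In block 6000 the calls were 41 rises and 129 falls in high-oil embryos and 42 and 134 in low-oil embryos, and in block 7000 31 and 101, and 33 and 94. Over all features 10.3% rose and 21.2% fell in high-oil embryos, and 11% and 21.4% in low-oil embryos. The balance depended on the scaling, since the median change of all features was -0.24 log2 units in each line. With median-of-ratios scaling, block 6000 had 58 rises and 83 falls in high-oil embryos and 59 and 81 in low-oil embryos, and block 7000 had 50 and 53, and 49 and 56.

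Some of these changes were called in both lines. In block 6000, 32 members rose in both lines (6.46%) and 115 fell in both (23.2%). In block 7000, 24 rose (5.62%) and 72 fell (16.9%), beside 7.48% and 16.6% of all features. Across members, the change in high-oil embryos correlated with that in low-oil embryos with r = 0.93 in block 6000 and 0.91 in block 7000, as a description of members that share their libraries.

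Among the members that rose most in both lines was Zm00001d006486 in block 6000. In the high-oil line it had 4.65, 0.597 and 1.31 RPKM at 15 days and 255, 183 and 185 RPKM at 40 days, a change of 6.23 log2 units (SE 0.27, adjusted p = 1.5e-16). In the low-oil line it had 2.2, 3.03 and 3.65 RPKM at 15 days and 217, 241 and 241 RPKM at 40 days (log2 5.90, SE 0.27, adjusted p = 3.4e-16). Most of that change was made early, with 159, 137 and 139 RPKM in high-oil embryos at 25 days, against 141, 167 and 130 RPKM in low-oil embryos. Zm00001d006853 came on later. Its means were 0.1 ± 0.103, 0.447 ± 0.708, 5 ± 1.89, 17.3 ± 7.92, 44.1 ± 15.1 and 94.1 ± 31.3 RPKM (SD, n = 3) from 15 to 40 days in high-oil embryos, and 0.183 ± 0.125, 0.179 ± 0.133, 15.6 ± 3.29, 40.7 ± 9.95, 45.6 ± 15 and 59 ± 11 RPKM in low-oil embryos (log2 6.38 and 5.65, adjusted p = 5.2e-15 and 5.8e-14 in limma). At 25 days the 3 high-oil values lay below the 3 low-oil values.

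Zm00001d006511 and Zm00001d006237 fell most in block 6000. Zm00001d006511 had 69.3, 204 and 135 RPKM at 15 days and 0.817, 0.091 and 0.228 RPKM at 40 days in high-oil embryos, and 63.3, 97 and 47 RPKM and then 2.17, 0.798 and 0.855 RPKM in low-oil embryos (log2 -6.54 and -4.93, SE 0.56 each). Zm00001d006237 had 31.7, 35.3 and 50.1 RPKM and then 0, 0.0457 and 0.179 RPKM in high-oil embryos, and 29.9, 23.7 and 37.5 RPKM and then 0.0797, 0.103 and 0.13 RPKM in low-oil embryos (log2 -5.20 and -4.81, SE 0.28 each). The values at the ends of the time course did not overlap in either line for these genes, and the adjusted p was at most 1.7e-08 in limma.

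In block 7000, Zm00001d007299 had the largest rise and was also its most abundant member. It had 4, 4.1 and 4.58 RPKM at 15 days, 591, 493 and 875 RPKM at 25 days and 6458, 11213 and 11179 RPKM at 40 days in high-oil embryos. In the low-oil line it had 2.85, 4.08 and 4.57, then 1625, 1195 and 2324, and then 7158, 13104 and 6784 RPKM (log2 10.80 in the high-oil and 10.81 in low-oil embryos, SE 0.62 each). At 25 days the high-oil values lay below all the low-oil values. Zm00001d007411, the second most abundant by mean, rose in parallel, with 1.32, 0.757 and 0.635 RPKM at 15 days and 335, 464 and 644 RPKM at 40 days in high-oil embryos, and 0.31, 1.14 and 0.541 RPKM and then 1349, 316 and 297 RPKM in low-oil embryos (log2 7.95 and 8.27, SE 0.59 each). The third, Zm00001d007824, fell, to 147 ± 40.9 RPKM at 40 days in high-oil embryos, where it had 364 ± 21.4 at 15 days, and to 153 ± 44.2 RPKM in low-oil embryos, where it had 326 ± 85.6 (SD, n = 3; log2 -1.34 and -1.11, adjusted p = 6.3e-05 and 0.00059 in limma). The strongest parallel fall was that of Zm00001d007187, with 87.9, 56.7 and 49.7 RPKM at 15 days and 0.0603, 0.14 and 0.271 RPKM at 40 days in high-oil embryos, and 32.2, 22.9 and 32.6 RPKM and then 0.212, 0.425 and 0.286 RPKM in low-oil embryos (log2 -5.79 and -4.52, SE 0.34 each).

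Of the 3 most abundant members of block 6000, 1 rose in both lines, 1 was called in no comparison and 1 fell in high-oil embryos. Zm00001d006796 averaged 669 ± 152 RPKM at 15 days and 2188 ± 752 RPKM at 40 days in high-oil embryos, and 632 ± 83.5 and 1834 ± 843 RPKM in low-oil embryos (SD, n = 3; log2 1.68 and 1.45, adjusted p = 4.7e-06 and 3.6e-05 in limma). Zm00001d006008 had 715, 803 and 758 RPKM at 15 days in high-oil embryos, against 747, 741 and 796 RPKM in low-oil embryos, and 1212, 923 and 926 RPKM at 40 days against 971, 944 and 1087. Its line difference averaged -0.02 log2 units (adjusted p = 0.87) and it was called in no comparison. Zm00001d006650 varied widely between replicates, with 799, 3219 and 3034 RPKM at 20 days in high-oil embryos, against 2330, 2683 and 864 RPKM in low-oil embryos, and its fall was called in high-oil embryos (log2 -2.58, adjusted p = 0.00015) and not in low-oil embryos (log2 -0.92, adjusted p = 0.14). The difference between these changes was not called (log2 -1.65, adjusted p = 0.33).

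**Figure D5:**
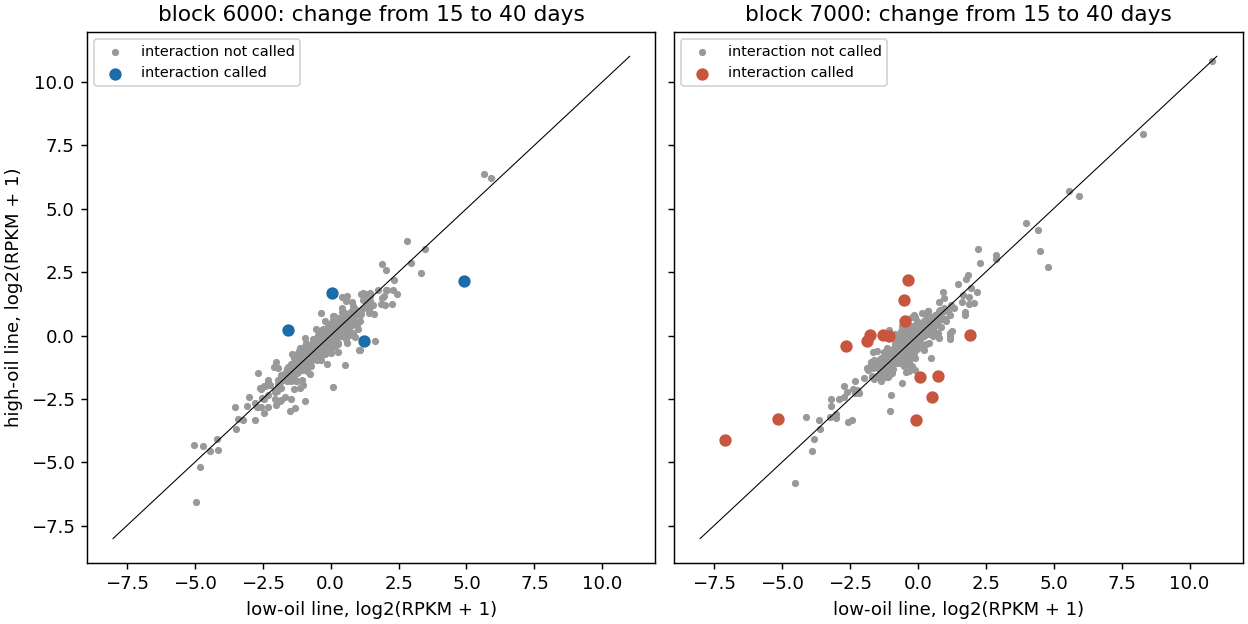
Change from 15 to 40 days of each member in high-oil embryos (vertical) against the low-oil line (horizontal), log2(RPKM + 1), for block 6000 (left) and block 7000 (right), with members whose change differed between the lines as large points and the line of equal change in black. Most members lie along the line of equal change (r = 0.93 and 0.91), up to the rise of Zm00001d007299 near 10.8 in both lines, and 4 members on the left and 15 on the right were called for a difference.

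The change with age differed between the lines, by the interaction of line and stage, for 4 of 495 members of block 6000 (0.808%) and 15 of 427 members of block 7000 (3.51%), beside 2.74% of all features. Of these, 1 of the 4 and 8 of the 15 were also called in the line difference averaged over stages, from which the interaction is not independent. With limma-voom on the recovered reads the counts were 0 and 7. No share over all features stands beside these counts, so nothing is read from them.

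In block 6000, Zm00001d006612 began at different levels and ended at the same one. It had 10.6, 9.85 and 3.41 RPKM at 15 days in high-oil embryos, against 0, 0.0656 and 0.654 RPKM in low-oil embryos, and 31.7, 34.1 and 42.7 RPKM at 40 days against 31.4, 41.6 and 34.5. The lines already overlapped at 25 days, with 75.3, 87.2 and 64.4 RPKM against 148, 96.4 and 48.9. The change was 2.17 log2 units in high-oil embryos and 4.92 in low-oil embryos (interaction -2.76, SE 0.48, adjusted p = 0.00045). The second was Zm00001d006069, described above, with a change of 0.22 log2 units in high-oil embryos and -1.58 in low-oil embryos (interaction 1.80, SE 0.33, adjusted p = 0.00099). Its high-oil values, at most 0.342 RPKM, could hardly fall on this scale, and the p-value is given as a description.

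In block 7000, Zm00001d007286 was lost from most old high-oil libraries. At 35 and 40 days it had 9.29, 0 and 0 RPKM and 1.98, 0 and 0 RPKM in high-oil embryos, against 16.5, 15.3 and 14.1 RPKM and 14.4, 17.6 and 15.1 RPKM in low-oil embryos. At 15 days the lines overlapped, with 15.5, 18 and 8.57 RPKM against 17.4, 13.1 and 18.8 (interaction -3.27, SE 0.84, adjusted p = 0.024). At 25 days 1 high-oil library of 3 was also close to 0, at 0.0908 RPKM. Zm00001d007827 fell in both lines, less far in high-oil embryos. It had 93.4, 105 and 98.6 RPKM at 15 days in high-oil embryos, against 191, 284 and 239 RPKM in low-oil embryos, and 4.37, 6.03 and 4.22 RPKM at 40 days against 0.242, 0.187 and 2.52. The order of the lines turned round between those ages without overlap at either end, with changes of -4.10 and -7.09 log2 units (interaction 2.99, SE 0.63, adjusted p = 0.0039).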

How the data were processed

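The authors deposited 1 table of RPKM values with 1 column per library, and 0 columns were left unused. FastQC, TopHat2, Cufflinks and the build B73 RefGen_v4 are named per the submitters' processing notes. Which tool counted the reads, with which annotation and with or without strand, is not given in the sources used here. For 51853 features with reads, 100% of the values resolved to whole reads within 0.0001 reads. Among 36 replicate pairs the lowest reduced chi-square was 14.29, so no pair agreed within sampling noise.

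Features that reached 1 RPKM in 3 or more libraries entered limma 3.58.1 in R 4.3.3 on log2(RPKM + 1), a scale that understates changes of low features. The fit had 1 mean per group over 12 groups and a mean-variance trend, with Benjamini-Hochberg adjustment over all 28048 features. Calls needed a difference of 1 log2 unit or more and an adjusted p below 0.05. All differences are high-oil minus low-oil. The method was tested on simulated data with fixed fold changes in features above the lowest levels. Absence of a feature from 1 line was not simulated. Ratios of pooled reads have exact binomial 95% intervals, and floors are 3 reads over a group. Both cover counting error only.

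The members and lists were chosen with earlier results of these data known. Named members are, per block and direction, the 7 largest called line differences with 1 sign at all stages, the 2 largest changes with age called in both lines, the 2 largest interactions and the 3 highest means. Others are said to be chosen after their values were seen, or stand in a called pair, window or non-overlapping set. The IDs matched no entry of the reference table of another assembly, so no names, positions or sequences are given, and the lists of embryo and endosperm markers could not be used. Figures were drawn with matplotlib 3.10.9.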

Additional observations from a re-analysis of the deposited data

Results flagged for a closer look

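In 4 named members the lines differed in their change from 15 to 40 days, by the interaction in limma. For Zm00001d006612 the difference was -2.76 log2 units (2.17 in high-oil and 4.92 in low-oil embryos, adjusted p = 0.00045), and for Zm00001d006069 it was 1.80 (0.22 and -1.58, adjusted p = 0.00099). For Zm00001d007286 it was -3.27 (-3.32 and -0.05, adjusted p = 0.024), and for Zm00001d007827 it was 2.99 (-4.10 and -7.09, adjusted p = 0.0039). Zm00001d006069 passed the filter through the low-oil line alone. Its high-oil values, at most 0.342 RPKM, could hardly fall on this scale, so its p-value is a description. All 3 high-oil libraries lay on 1 side of the 3 low-oil libraries at 15 days for Zm00001d006612, Zm00001d006069 and Zm00001d007827. For Zm00001d007286 this held at 40 days, where high-oil replicate 1 had 1.98 RPKM and the others had 0. With limma-voom the adjusted p of Zm00001d006612, Zm00001d006069 and Zm00001d007827 was 0.054, 0.16 and 0.12, and Zm00001d007286 was not called with a pseudocount of 0.1 (adjusted p = 0.081) or when any 1 of 5 libraries was left out (adjusted p of 0.052 to 0.079). These were replicates 1 and 2 of the high-oil line at 15 days, its replicates 2 and 3 at 40 days, and low-oil 15-day replicate 2.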

How the results depend on the processing

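Every line difference of a named member kept its call under all alternatives run whose filter it passed, single libraries left out included. The filter of 1 RPKM in 3 libraries of each line left many of them untested. These were all 4 of block 6000 and, in block 7000, Zm00001d007801, Zm00001d007487, Zm00001d007488, Zm00001d007018, Zm00001d007792 and Zm00001d007896. The count of called members averaged over stages was 4 in block 6000 and 32 in block 7000. With a pseudocount of 0.1 it was 13 and 54, beside 12.3% of all features in place of 5.83%. Under limma-voom on recovered reads it was 14 and 58 (13.2% of all features). By the adjusted p alone it was 76 and 150 (31.9% of all features). It was 0 and 20 with 1 RPKM required in 3 libraries of each line (3.11% of all features). At a minimum of 5 RPKM block 6000 had 2, beside 6.14% of all features. The share of block 6000 was below that of all features in each of these settings. Of the 32 calls of block 7000, 31 were made again under limma-voom, and 31 also under each of median-of-ratios and quantile scaling. Without the 3 libraries with the lowest correlation to their group the counts were 4 and 29 (5.96% of all features). With the replicate number as a block the counts were 4 and 33 (5.83% of all features). The numbers do not pair the samples: of 18 same-numbered pairs of lines, 5 correlated above 0.1 (range -0.296 to 0.394). Leaving out 1 library gave 4 to 5 and 30 to 34.

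By stage, block 6000 had 10 calls at 15 days and 17 at 25 days with a pseudocount of 0.1. Over all features 7.28% and 10.1% were called there. With 1 RPKM in each line block 6000 had 2, 6, 5, 3 and 3 at 15, 20, 25, 30 and 40 days, and block 7000 had 15 at 15 days. The shares of all features at these stages were then 2.93%, 3.84%, 4.56%, 3.5% and 3.57%. At a minimum of 5 RPKM block 6000 had 7, 4, 6 and 4 from 25 to 40 days, beside 7.29%, 6.27%, 8.36% and 6.36% of all features. With the adjusted p alone block 6000 had 21, 55, 16 and 38 from 20 to 35 days, and block 7000 had 58, 71 and 42 at 25, 35 and 40 days. The shares of all features from 20 to 40 days were then 11.3%, 16.2%, 10.4%, 14.6% and 10.6%. With the compared groups alone in the fit block 6000 had 7 at 25 and 6 at 35 days, and block 7000 had 14 at 40 days. Over all features 6.46%, 5.95% and 4.45% were called at 25, 35 and 40 days. Block 6000 had 21 at 35 days with limma-voom, beside 10.7% of all features. Without the 3 libraries it had 19 at 35 and 16 at 40 days, beside 9.48% and 8.27% of all features. Its count at 40 days ran from 6 to 18 with 1 library left out. The 18 came without high-oil 40-day replicate 1, where 9.03% of all features were called. With the adjusted p alone the change with age had 295 and 292 calls in block 6000 and 251 and 252 in block 7000. Over all features the shares were then 54.8% in high-oil and 55.4% in low-oil embryos. The interaction in block 6000 had 1 call at a minimum of 5 RPKM and with 1 RPKM in each line, and 0 with limma-voom (29 members at an unadjusted p below 0.05), and in block 7000 7. Left out singly, libraries gave 2 to 7 and 8 to 15, the 8 without high-oil 40-day replicate 3, the 2 without high-oil 15-day replicate 2, and the 7 without high-oil 40-day replicate 1 or low-oil 40-day replicate 2. No share over all features stands beside these interaction counts, and nothing is read from them. In windows of 50 numbers the highest share in block 6000 was 4.35%. The causes were not tested. No named member's value changed sign. The order of lower and higher calls of block 6000 turned round at 25 and 35 days under median-of-ratios scaling (5 lower and 6 higher at both). It did not under quantile scaling (7 lower and 6 higher at both). Differences of 1 read or a few are within counting error, so members near 0 in a line are known only by their bounds.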
